A study of Mus musculus with 6 samples.

Results

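The genes described here encode the DNA replication machinery, 50 genes that were listed by name and sorted by complex. All 50 were found in the files among 51912 genes with an Ensembl identifier, through symbols of GENCODE release M21 on GRCm38. RNA was sequenced from mouse embryonic stem cells, the pluripotent cells of the early embryo in culture, of the C57BL/6 strain. Rbbp4KO libraries came from cells of the genotype Rbbp4-/-. Rbbp4 encodes a histone-binding protein, a subunit of Polycomb repressive complex 2, NuRD, Sin3 and the replication-linked histone chaperone CAF-1. Rbbp4F/F libraries came from cells of the Rbbp4F/F genotype, which the series title gives as control. Each group had 3 libraries. The sources used here do not give the agent that removed the gene, the deleted exons or the number of clones. They also do not say whether the libraries came from separate cultures, so the p-values reflect variation among these libraries alone, which may be technical.

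Replication begins when the origin recognition complex binds DNA and, with Cdc6 and Cdt1, loads the ring of Mcm2 to Mcm7 as an inactive helicase. The kinase Cdc7 with Dbf4 then triggers the joining of Cdc45 and the GINS complex, which turns the ring into the moving helicase. Polymerase alpha with primase starts each strand, polymerase epsilon and polymerase delta extend it on the PCNA clamp, and Fen1 and Lig1 join the lagging strand. Embryonic stem cells divide fast with short gap phases, and many of these genes are textbook targets of E2F transcription factors.

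Values are FPKM, fragments per kilobase of transcript scaled to the library's total, which allows for transcript length when genes are compared. Steps between low values put the depth at about 25800000 to 29000000 fragments per library, at which 1 fragment on a 2 kb transcript is worth 0.02 to 0.0225 FPKM. That precision is far finer than the level of any gene below, the lowest of which averaged 4.12 FPKM in Rbbp4F/F cells. Rbbp4 itself had 21.3, 12.7 and 11.1 FPKM in Rbbp4KO replicates 1 to 3, against 58.5, 57.0 and 61.8 FPKM in Rbbp4F/F replicates 1 to 3 (log2 fold change −1.96 with SE 0.22, adjusted p = 0.000394 by limma). These are values for the whole gene, so they do not show the deleted part. Rbbp4KO replicate 1, which held the most Rbbp4 transcript, stood apart from the other Rbbp4KO libraries on the second principal component of all tested genes (36 against −7 and −24.2). Of 7 embryonic stem cell markers 6 were lower, where 22.5% of all tested genes were lower and 36.7% higher. The 7 summed to 1319 to 2098 FPKM in Rbbp4KO libraries and 4288 to 4419 FPKM in Rbbp4F/F libraries. Pou5f1 had 290.2 to 503.0 FPKM in Rbbp4KO and 1043 to 1158 FPKM in Rbbp4F/F libraries. Nanog had the lowest log2 fold change (−3.92), with 3.59 to 4.81 FPKM in Rbbp4KO and 74.2 to 84.8 FPKM in Rbbp4F/F libraries. Zfp42 was not called (−0.13). Of 7 trophoblast markers 6 were higher, with sums of 2184 to 3932 FPKM in Rbbp4KO libraries and 109 to 167 FPKM in Rbbp4F/F libraries. Most of these sums came from the keratin genes Krt8 (1040 to 1926 FPKM in Rbbp4KO libraries) and Krt18 (1076 to 1887 FPKM). Cdx2 had 1.39 to 1.77 FPKM in Rbbp4KO and 0 to 0.12 FPKM in Rbbp4F/F libraries, Gata3 3.71 to 6.33 and 0.27 to 0.93 FPKM. Elf5 was not called. Of 7 fibroblast markers, for feeder cells, 6 stayed under 1 FPKM in all libraries, and Lum and Postn were listed at 0 in all Rbbp4F/F libraries, while Thy1 had 7.26 to 8.01 FPKM in Rbbp4KO and 11.7 to 18.0 FPKM in Rbbp4F/F libraries. The opposite direction was seen below 1 FPKM for Col1a2, Col3a1, Dcn and Lum, each with every Rbbp4KO library above every Rbbp4F/F library. Col3a1 had 0.29 to 0.48 FPKM in Rbbp4KO and 0.01 to 0.08 FPKM in Rbbp4F/F libraries, and Dcn 0.59 to 0.98 FPKM in Rbbp4KO and 0.12 to 0.37 FPKM in Rbbp4F/F libraries. The part of these markers in the results below was not tested.

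Most replication genes had lower transcript levels in Rbbp4KO cells, and a few were higher. Of the 50 genes, 28 were lower, 4 were higher and 18 did not pass the test, by limma on log2(FPKM + 1) with Benjamini-Hochberg adjustment over all 13579 tested genes and a threshold of 0.05. Over all tested genes 22.5% were called lower and 36.7% higher, against 56.0% and 8.0% of the replication genes. The median log2 fold change of the replication genes, Rbbp4KO minus Rbbp4F/F, was −0.34, and that of all tested genes was 0.17. A mean at least 1.5 times lower was found in 16 of the genes called lower, and a mean at least 2 times lower in 7, which were Pold2, Pold1, Cdc6, Gins1, Gins2, Gmnn and Dut. All 50 genes passed the filter of 1 FPKM in at least 3 libraries in both groups, so none was admitted through a single group.

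Every Rbbp4KO library lay below every Rbbp4F/F library for 29 of the 50 genes and above for 5, while 25.5% and 41.3% of all tested genes did so. The split of calls depended on the scaling between libraries. Median-ratio scaling gave 35 lower and 1 higher, where 30.8% and 27.1% of all genes were called. Upper-quartile scaling gave 34 and 2 (28.3% and 29.7%). Libraries set to equal sums gave 21 and 8 (17.6% and 44.5%). Under these scalings, in the same order, the median over all genes was −0.03, 0.03 and 0.31 log2 units. A scaling shifts all genes nearly alike, so the median of the replication genes relative to all genes hardly depends on it (−0.51 with the values as deposited). With no filter on low values, where 26853 genes entered, that relative median was −0.38. Without Rbbp4KO replicate 1, 32 were lower and 6 higher, against 25.6% and 39.9% of all genes. The call was the same with the values as deposited and in all 14 alternatives for 21 genes called lower, for 1 called higher (Gins3) and for 5 not called.

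**Figure D1:**
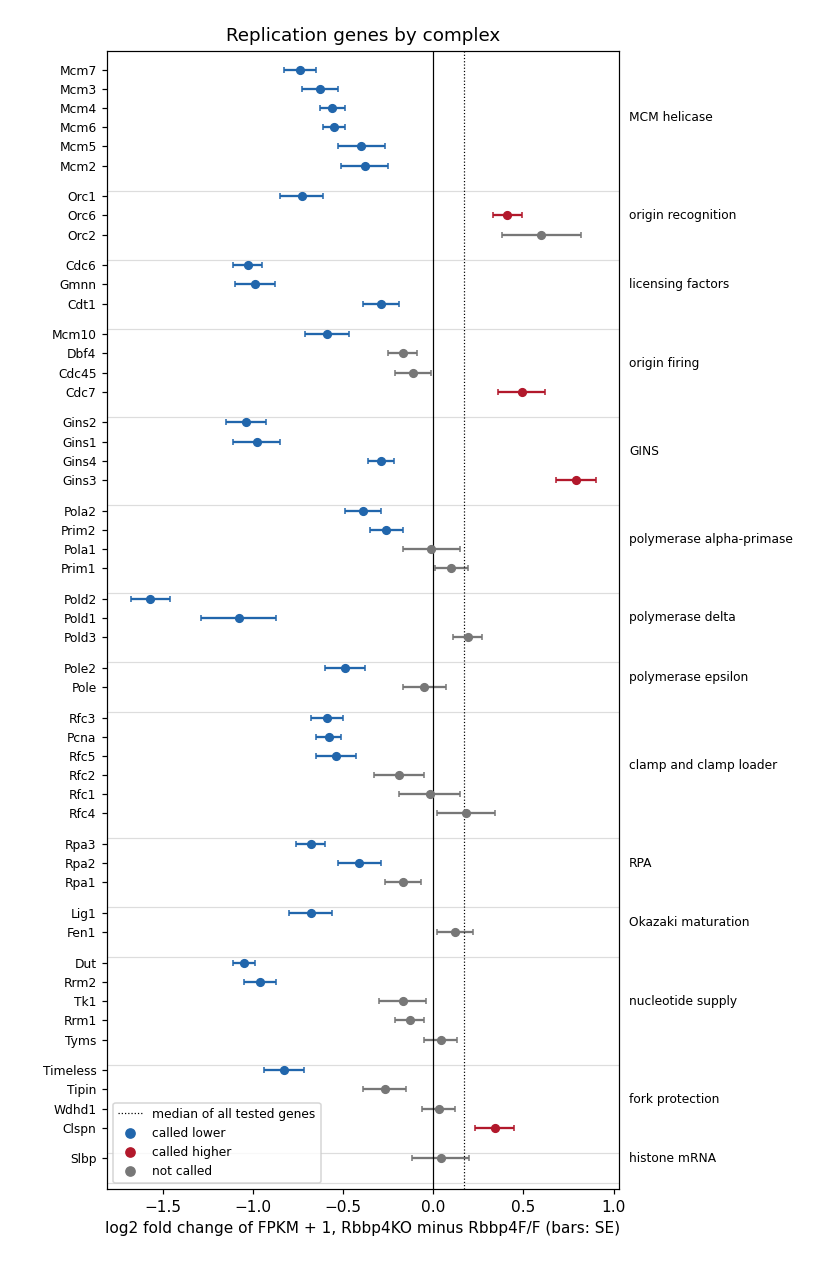
Log2 fold change of FPKM + 1 for each of the 50 genes, Rbbp4KO minus Rbbp4F/F, sorted by complex; points are limma estimates, bars are SE (n = 3 libraries per group), colours give the call and the dotted line is the median of all tested genes, 0.17. Points of the MCM helicase all lie left of 0, while GINS and polymerase delta spread over both sides, from −1.04 to 0.79 and from −1.57 to 0.19.

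Of 9 markers of cell division outside replication 6 were lower and 3 were not called, or 66.7% lower against 22.5% of all tested genes, with summed levels of 823 to 838 FPKM in Rbbp4KO libraries against 1258 to 1293 FPKM in Rbbp4F/F libraries. Top2a, which unlinks sister DNA, had a log2 fold change of −1.27, Ccnb2 −1.07 and Ccnb1 −0.93. Ccna2, a cyclin gene, was lower (−0.29), a call lost with equal sums (−0.13). Of 6 arrest genes 4 were higher, 66.7% against 36.7% of all tested genes, among them Cdkn1a, the gene of the cell cycle inhibitor p21 (2.03). Cdkn1c, another inhibitor gene, was lower (−0.62), a call lost with equal sums (−0.46), with no filter on low values and without any of the Rbbp4F/F libraries (−0.62 to −0.61). In bulk RNA, fewer cells in S phase and less RNA per cell cannot be told apart, and this holds for every gene below.

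The promoters of these genes are shown because E2F sites are a textbook feature of such promoters. The shares below therefore describe the list and not the change between genotypes. Whether the matches bear on that change was not tested. RefSeq promoters on GRCm38.p6, from 250 bases before to 50 bases after the start, were found by symbol for 41 of the 50 genes, with 48 starts. Gins1, Gins2, Gins4, Gmnn, Mcm4, Pole, Prim2, Rfc2 and Tipin had no entry. An E2F octamer (TTTCCCGC, TTTGGCGC, TTTCGCGC or TTTGCCGC, either strand, overlapping matches kept) was found for 15 of the 41 genes, 36.6%. It was found for 2.6% of all 27025 genes with promoter entries, tested here or not, and in 2.3% of the 32851 promoters. By call, 11 of 22 lower genes, 2 of 4 higher genes and 2 of 15 genes not called held a match. A CCAAT box (CCAAT, either strand) was found for 24 of 41 genes and 41.1% of all genes, and the CHR element (TTTGAA, either strand) for 7 of 41 genes and 20.2% of all genes. A match describes letters and is no evidence of binding. The stretches below run 5′ to 3′ on the gene's strand, 30 bases around the match nearest the start, with E2F octamers in capitals. They cover a part of the 15 genes. Genes that were lower come first, then Pola1, which was not called, and Gins3, which was higher. Matches in the lower genes Pold1, Lig1, Pole2 and Cdt1, in Pold3 (not called) and in Clspn (higher) are not printed.
Cdc6 (chr11:98908002-98908031, plus strand): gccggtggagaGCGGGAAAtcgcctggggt
Mcm7 (chr5:138171849-138171878, minus strand): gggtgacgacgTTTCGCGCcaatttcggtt
Orc1 (chr4:108579416-108579445, plus strand): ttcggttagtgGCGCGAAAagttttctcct
Mcm3 (chr1:20820275-20820304, minus strand): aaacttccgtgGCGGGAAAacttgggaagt
Rfc3 (chr5:151651190-151651219, minus strand): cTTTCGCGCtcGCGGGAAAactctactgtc
Mcm6 (chr1:128359734-128359763, minus strand): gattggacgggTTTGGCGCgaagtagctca
Pola1 (chrX:93632275-93632304, minus strand): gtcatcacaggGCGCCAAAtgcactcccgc
Gins3 (chr8:95633507-95633536, plus strand): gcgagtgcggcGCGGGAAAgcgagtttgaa
Cdc6 and Gins3 hold the same octamer and had log2 fold changes of −1.03 and 0.79. In Rfc3 the stretch holds 2 octamers on opposite strands. Mcm5 holds 2 that overlap, on opposite strands. They begin at positions −153 and −149 from the start, which the 200 bases up to the start show (chr8:75109309-75109508, plus strand).
Mcm5: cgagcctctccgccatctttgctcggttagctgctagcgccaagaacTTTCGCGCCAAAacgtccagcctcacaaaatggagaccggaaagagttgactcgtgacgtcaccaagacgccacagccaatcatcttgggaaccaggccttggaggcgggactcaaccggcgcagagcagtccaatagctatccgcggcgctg

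The MCM helicase genes fell together. All 6 were lower, with log2 fold changes from −0.74 to −0.38, and their summed level was 692 to 854 FPKM in Rbbp4KO libraries against 1081 to 1117 FPKM in Rbbp4F/F libraries. Mcm7 (chr5:138164583-138172422, minus strand) fell most, with 159, 144 and 132 FPKM in Rbbp4KO replicates 1 to 3, against 235, 239.8 and 250.3 FPKM in Rbbp4F/F replicates 1 to 3 (log2 fold change −0.74 with SE 0.09, adjusted p = 0.000481 by limma). Mcm2 fell least, with 179, 138 and 127 FPKM in Rbbp4KO cells, against 192, 202 and 181 FPKM in Rbbp4F/F cells (log2 fold change −0.38 with SE 0.13, adjusted p = 0.0407 by limma). Its Rbbp4KO replicate 1 lay just below the lowest Rbbp4F/F library, and Mcm5 had the same pattern, at 184, 139 and 129 FPKM in Rbbp4KO and 202, 199.8 and 187 FPKM in Rbbp4F/F cells. The calls of Mcm2 and Mcm5 were lost when Rbbp4F/F replicate 1, 2 or 3 or Rbbp4KO replicate 2 or 3 was left out, with log2 fold changes of −0.43 to −0.28. They were also lost with equal sums (−0.23 and −0.24) and with no filter on low values. Mcm6 had close replicates, with 90.5, 91.6 and 91.7 FPKM in Rbbp4KO cells against 136, 131 and 136 FPKM in Rbbp4F/F cells (log2 fold change −0.55 with SE 0.06, adjusted p = 0.000389 by limma). Log2 fold changes were −0.63 for Mcm3 and −0.56 for Mcm4. Although the subunits form a ring with 1 copy of each, their transcript levels differed, with Mcm5 or Mcm3 at the top in Rbbp4KO libraries, Mcm3 or Mcm7 in Rbbp4F/F libraries, and Mcm4 at the bottom in all 6. The highest subunit was 1.95 to 2.90 times the lowest in Rbbp4KO libraries and 2.39 to 2.52 times in Rbbp4F/F libraries. Antisense exons of Ap4m1 and Cops6 overlap 8.7% of the exonic length of Mcm7, and Mir25 and Mir93 lie in 3.9% of it on the same strand.

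Genes of origin recognition did not move together. Orc1, the subunit whose level is tied to the cell cycle, was 13.4, 17.8 and 15.9 FPKM in Rbbp4KO cells, against 26.1, 27.3 and 26.0 FPKM in Rbbp4F/F cells (log2 fold change −0.73 with SE 0.12, adjusted p = 0.00171 by limma). Orc6 (chr8:85299632-85308278, plus strand) moved the other way, with 79.1, 88.6 and 90.8 FPKM in Rbbp4KO cells, against 65.1, 64.3 and 63.8 FPKM in Rbbp4F/F cells (log2 fold change 0.41 with SE 0.08, adjusted p = 0.00354 by limma). The groups did not overlap for either gene. The Orc6 call was lost with median-ratio scaling (0.19). Orc2 had 26.2, 40.5 and 49.0 FPKM in Rbbp4KO cells, against 21.6, 27.7 and 23.9 FPKM in Rbbp4F/F cells (log2 fold change 0.60 with SE 0.22, adjusted p = 0.0511 by limma), and Rbbp4KO replicate 1 lay within the Rbbp4F/F range. Without Rbbp4KO replicate 1, Orc2 was called higher (0.85), and it also passed with equal sums (0.76), a filter at 5 FPKM and protein-coding genes alone (0.60 in both). Antisense exons cover 29.8% of Orc2 (Nif3l1), 10.8% of Orc1 (Gm12743) and 6.9% of Orc6 (Vps35), and whether counting used strand is not given, so reads there cannot be told apart. Of the other origin recognition genes, Orc5 was higher (0.36), a call lost with median-ratio (0.13) or upper-quartile (0.20) scaling. Orc3 (−0.10) and Orc4 (0.07) were not called.

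The licensing factors were all lower, to different degrees. Cdc6 (chr11:98907801-98923940, plus strand), the ATPase that helps load the ring, had 25.9, 27.8 and 25.6 FPKM in Rbbp4KO cells, against 56.4, 58.0 and 51.2 FPKM in Rbbp4F/F cells (log2 fold change −1.03 with SE 0.08, adjusted p = 0.000118 by limma). Gmnn, the gene of geminin, which blocks Cdt1 after origins have fired, had 31.4, 40.8 and 39.9 FPKM in Rbbp4KO cells, against 73.9, 74.1 and 76.4 FPKM in Rbbp4F/F cells (log2 fold change −0.99 with SE 0.11, adjusted p = 0.000402 by limma). Cdt1, the loader that geminin binds, had 122, 106 and 95.8 FPKM in Rbbp4KO cells, against 134, 136 and 125 FPKM in Rbbp4F/F cells (log2 fold change −0.29 with SE 0.10, adjusted p = 0.0405 by limma). Groups were separate for all 3 genes, though Cdt1 in Rbbp4KO replicate 1 was near the lowest Rbbp4F/F library. The Cdt1 call was lost when any of the 3 Rbbp4F/F libraries or Rbbp4KO replicate 2 or 3 was left out (−0.33 to −0.21), with equal sums (−0.14) and with no filter on low values.

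The ratio of Cdt1 to Gmnn FPKM was 3.89, 2.59 and 2.40 in Rbbp4KO replicates 1 to 3, against 1.82, 1.84 and 1.64 in Rbbp4F/F replicates 1 to 3. Every Rbbp4KO ratio was above every Rbbp4F/F ratio, with a difference of 0.72 on the log2 scale (two-sided exact permutation test p = 0.10, adjusted over 8 ratios p = 0.133, where 3 against 3 libraries cannot give less than 0.10). Such ratios within a library do not depend on scaling between libraries. The part of GC content in them was not tested (longest transcripts 57.8% for Cdt1 and 49.8% for Gmnn). Of 7 genes linked to the destruction of Cdt1 and its regulators, whether they promote or restrain it, 42.9% were higher and 28.6% lower, near the 36.7% and 22.5% of all tested genes. The scaffold genes Cul4b (1.40), Cul1 (1.0) and Cul4a (0.84) rose and the F-box genes Skp2 (−0.73) and Fbxo5 (−0.92) fell. Dtl (−0.16) and Ddb1 (0.25) were not called. Ddb1 passed as higher without Rbbp4KO replicate 1 (0.16) or 3 (0.33), with equal sums (0.41) and with protein-coding genes alone (0.25).

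Genes that fire origins split. Mcm10, which helps to activate the helicase, had 69.4, 54.3 and 54.6 FPKM in Rbbp4KO cells, against 90.4, 94.6 and 82.6 FPKM in Rbbp4F/F cells (log2 fold change −0.59 with SE 0.12, adjusted p = 0.00441 by limma). Cdc7, the kinase gene, was higher, with 13.8, 14.0 and 15.6 FPKM in Rbbp4KO cells, against 9.34, 8.89 and 11.9 FPKM in Rbbp4F/F cells (log2 fold change 0.49 with SE 0.13, adjusted p = 0.0162 by limma). The Cdc7 groups did not overlap, but its call was lost without Rbbp4F/F replicate 1 (0.45) or 2 (0.42), without Rbbp4KO replicate 3 (0.44), and with median-ratio (0.28) or upper-quartile (0.34) scaling. Dbf4, its activating subunit, had 57.7, 56.0 and 62.8 FPKM in Rbbp4KO cells, against 64.5, 68.6 and 65.7 FPKM in Rbbp4F/F cells (log2 fold change −0.17 with SE 0.08, adjusted p = 0.0890 by limma). Dbf4 did not pass although the groups did not overlap, and was called lower under median-ratio (−0.40) or upper-quartile (−0.33) scaling. The ratio of Dbf4 to Cdc7 was 4.18, 4.01 and 4.04 in Rbbp4KO libraries, against 6.91, 7.72 and 5.51 in Rbbp4F/F libraries (log2 difference −0.71, exact permutation p = 0.10, adjusted p = 0.133). Cdc45, which rides with the moving helicase, had 62.8, 52.1 and 49.2 FPKM in Rbbp4KO cells, against 60.1, 58.4 and 58.1 FPKM in Rbbp4F/F cells (log2 fold change −0.11 with SE 0.10, adjusted p = 0.376 by limma). Cdc45 was called lower without Rbbp4KO replicate 1 (−0.21) and under median-ratio (−0.34) or upper-quartile (−0.27) scaling.

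The 4 GINS genes, whose products form a complex with 1 copy of each, did not change in the same direction: 3 were lower and 1 was higher. Gins2 had 35.4, 30.7 and 27.2 FPKM in Rbbp4KO cells, against 67.6, 66.0 and 60.6 FPKM in Rbbp4F/F cells (log2 fold change −1.04 with SE 0.11, adjusted p = 0.000334 by limma). Antisense exons of Gse1 cover 67.3% of Gins2, so its value is uncertain, as are the ranking, spread and ratio below that use it. Gins1 was lower by a similar amount, at 15.0, 18.5 and 15.1 FPKM in Rbbp4KO cells and 33.1, 28.7 and 37.2 FPKM in Rbbp4F/F cells (log2 fold change −0.98 with SE 0.13, adjusted p = 0.000800 by limma). Gins4 was lower by less, with 45.6, 44.4 and 45.9 FPKM in Rbbp4KO cells, against 56.5, 55.2 and 54.6 FPKM in Rbbp4F/F cells (log2 fold change −0.29 with SE 0.07, adjusted p = 0.00885 by limma), and its call was lost with equal sums (−0.13). Gins3 (chr8:95633453-95645060, plus strand) was higher, with 7.86, 7.64 and 8.02 FPKM in Rbbp4KO cells, against 3.97, 4.32 and 4.07 FPKM in Rbbp4F/F cells (log2 fold change 0.79 with SE 0.11, adjusted p = 0.000914 by limma). It had the largest rise among the genes called higher and was the least abundant GINS gene in every library. The most abundant GINS gene was 5.72 to 5.81 times the least abundant in Rbbp4KO libraries, against 14.9 to 17.0 times in Rbbp4F/F libraries. Gins4 was the highest of the 4 in every Rbbp4KO library, and Gins2 was the highest in every Rbbp4F/F library. The ratio of Gins2 to Gins4 was 0.777, 0.692 and 0.592 in Rbbp4KO libraries, against 1.20, 1.20 and 1.11 in Rbbp4F/F libraries (log2 difference −0.77, exact permutation p = 0.10, adjusted p = 0.133).

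**Figure D2:**
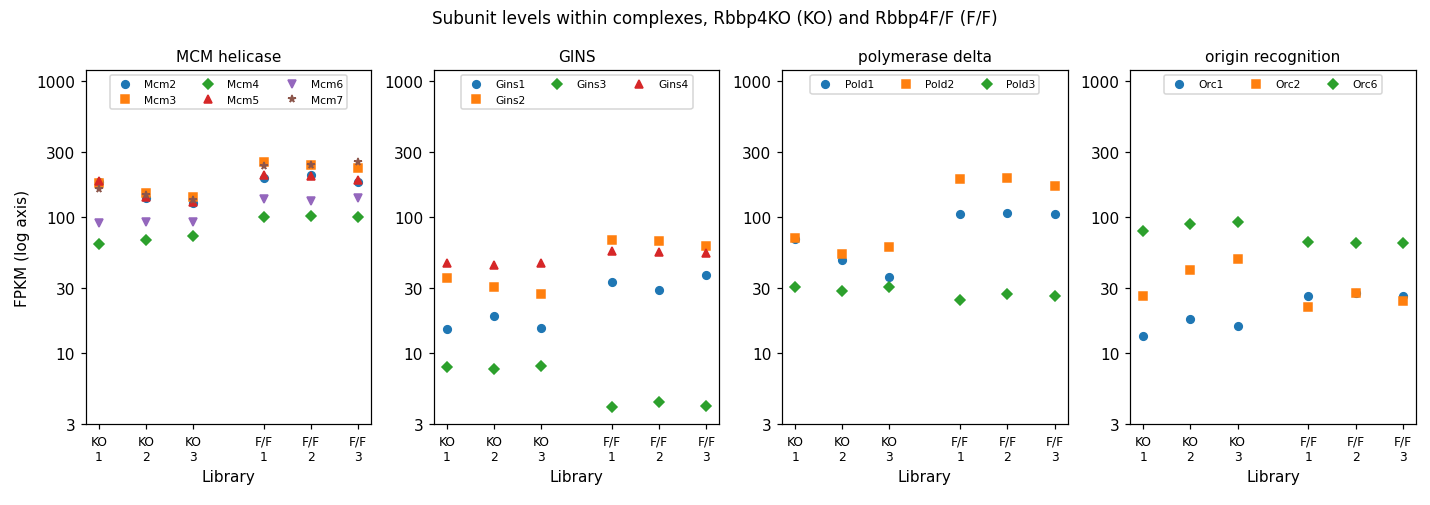
FPKM on a log axis of each subunit gene of 4 complexes in every library, Rbbp4KO (KO) left and Rbbp4F/F (F/F) right; each point is 1 library. The 6 MCM points shift down together, the GINS and polymerase delta points draw closer in Rbbp4KO libraries, and the origin recognition points draw apart, with a highest value 4.99 to 5.91 times the lowest in Rbbp4KO libraries, against 2.35 to 3.01 times in Rbbp4F/F libraries.

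Polymerase genes differed in size and direction of change. Pold2 (chr11:5872180-5878292, minus strand), the accessory subunit of polymerase delta, had the largest fall of the 50 genes, with 69.8, 53.5 and 60.0 FPKM in Rbbp4KO cells, against 188, 191 and 167 FPKM in Rbbp4F/F cells (log2 fold change −1.57 with SE 0.11, adjusted p = 8.10e-05 by limma). The mean in Rbbp4KO cells was 33.5% of that in Rbbp4F/F cells. The catalytic subunit Pold1 had 69.2, 48.3 and 36.3 FPKM in Rbbp4KO cells, against 105, 106 and 106 FPKM in Rbbp4F/F cells (log2 fold change −1.08 with SE 0.21, adjusted p = 0.00417 by limma), with the Rbbp4KO libraries spread over nearly 2 times. Pold3, a subunit which helps the polymerase to bind PCNA, had 30.5, 28.3 and 30.3 FPKM in Rbbp4KO cells, against 24.5, 27.2 and 26.3 FPKM in Rbbp4F/F cells (log2 fold change 0.19 with SE 0.08, adjusted p = 0.0882 by limma). All Rbbp4KO values of Pold3 lay above the Rbbp4F/F values, and it passed as higher with equal sums (0.34). The highest subunit was 1.89 to 2.29 times the lowest in Rbbp4KO libraries, against 6.37 to 7.68 times in Rbbp4F/F libraries. The ratio of Pold2 to Pold1 overlapped between groups, at 1.01, 1.11 and 1.65 in Rbbp4KO and 1.79, 1.8 and 1.59 in Rbbp4F/F libraries (log2 difference −0.49, exact permutation p = 0.20, adjusted p = 0.229). Pold4, the smallest subunit, was not called (0.21), and passed as higher with equal sums (0.35).

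In polymerase epsilon, which copies the leading strand, Pole2 was 10.1, 9.04 and 9.02 FPKM in Rbbp4KO cells, against 12.99, 15.3 and 12.5 FPKM in Rbbp4F/F cells (log2 fold change −0.49 with SE 0.11, adjusted p = 0.00912 by limma). The catalytic subunit Pole had 55.5, 41.8 and 42.7 FPKM in Rbbp4KO cells, against 46.6, 48.3 and 48.5 FPKM in Rbbp4F/F cells (log2 fold change −0.05 with SE 0.12, adjusted p = 0.760 by limma). Rbbp4KO replicate 1 was the highest of all Pole values, and without it Pole was called lower (−0.17). The ratio of Pole2 to Pole was 0.181, 0.216 and 0.211 in Rbbp4KO libraries, against 0.279, 0.317 and 0.259 in Rbbp4F/F libraries (log2 difference −0.49, exact permutation p = 0.10, adjusted p = 0.133). The histone-fold subunits Pole3 and Pole4, which pair with each other, changed in opposite directions, with log2 fold changes of 0.88 (called higher) and −0.49 (called lower). Pole3 had 29.2, 34.6 and 31.2 FPKM in Rbbp4KO cells, against 16.0, 17.0 and 17.4 FPKM in Rbbp4F/F cells.

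Log2 fold changes of polymerase alpha and primase genes lay between −0.39 and 0.10. Pola2, the regulatory subunit, had 46.1, 40.3 and 37.9 FPKM in Rbbp4KO cells, against 52.0, 58.4 and 52.6 FPKM in Rbbp4F/F cells (log2 fold change −0.39 with SE 0.10, adjusted p = 0.0130 by limma). Prim2, the large primase subunit, was lower by −0.26 (adjusted p = 0.0353 in limma). The Pola2 call was lost without Rbbp4F/F replicate 2 (−0.33) and with equal sums (−0.23). The Prim2 call was lost without any of the Rbbp4F/F libraries, without Rbbp4KO replicate 2 or 3 (−0.30 to −0.21 over these) and with equal sums (−0.11). The catalytic subunit Pola1 had 4.94, 6.27 and 7.78 FPKM in Rbbp4KO cells, against 6.19, 6.33 and 6.27 FPKM in Rbbp4F/F cells (log2 fold change −0.01 with SE 0.16, adjusted p = 0.980 by limma), so its Rbbp4KO libraries lay on both sides of a narrow Rbbp4F/F range. Prim1, the catalytic primase subunit, had 37.7, 32.5 and 37.8 FPKM in Rbbp4KO cells, against 32.7, 32.8 and 35.3 FPKM in Rbbp4F/F cells (log2 fold change 0.10 with SE 0.09, adjusted p = 0.396 by limma), and it passed as higher with equal sums (0.25). The ratio of Prim1 to Pola1 was 7.63, 5.19 and 4.86 in Rbbp4KO and 5.28, 5.18 and 5.64 in Rbbp4F/F libraries (log2 difference 0.11, exact permutation p = 0.90, adjusted p = 0.90).

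The sliding clamp gene Pcna was lower, with 121, 134 and 134 FPKM in Rbbp4KO cells, against 191, 196 and 194 FPKM in Rbbp4F/F cells (log2 fold change −0.58 with SE 0.07, adjusted p = 0.000538 by limma). Its loader, replication factor C, has a large subunit, Rfc1, and 4 small ones. Rfc3 fell most, with 24.8, 26.0 and 23.2 FPKM in Rbbp4KO cells, against 36.8, 40.4 and 35.6 FPKM in Rbbp4F/F cells (log2 fold change −0.59 with SE 0.09, adjusted p = 0.00134 by limma), and Rfc5 was also lower (−0.54). Rfc4 had 92.8, 66.7 and 61.8 FPKM in Rbbp4KO cells, against 59.4, 62.1 and 70.9 FPKM in Rbbp4F/F cells (log2 fold change 0.18 with SE 0.16, adjusted p = 0.361 by limma), with Rbbp4KO replicate 1 above all other libraries. Rfc1 (−0.02) and Rfc2 (−0.19) were not called, and Rfc2 passed as lower without Rbbp4KO replicate 1 (−0.35) and with median-ratio scaling (−0.42). Antisense exons cover 15.1% of Rfc2 (Lat2), 12.7% of Rfc4 (Eif4a2) and 10.7% of Rfc5 (Wsb2). In the related loader that serves cohesion, Chtf18 was lower (−0.63), Chtf8 was higher (0.40) and Dscc1 (0.15) was not called. The Chtf8 call was lost without Rbbp4F/F replicate 1 (0.40) or 3 (0.34) and under median-ratio (0.18) or upper-quartile (0.24) scaling. Exons of another gene entry with the same symbol overlap 91.8% of Chtf8 on the same strand, so reads there cannot be told apart.

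RPA coats single strands as a trimer. The smallest subunit, Rpa3, had 38.1, 37.9 and 37.0 FPKM in Rbbp4KO cells, against 57.6, 59.7 and 66.4 FPKM in Rbbp4F/F cells (log2 fold change −0.68 with SE 0.08, adjusted p = 0.000492 by limma). Rpa2 was lower as well (−0.41), but its call was lost without any of the Rbbp4F/F libraries, without Rbbp4KO replicate 2 or 3 (−0.42 to −0.32 over these) and with equal sums (−0.25). The large subunit Rpa1 had 135, 119.5 and 107 FPKM in Rbbp4KO cells, against 134, 139.9 and 132 FPKM in Rbbp4F/F cells (log2 fold change −0.17 with SE 0.10, adjusted p = 0.16 by limma). Rpa1 was called lower without Rbbp4KO replicate 1 (−0.26) and under median-ratio (−0.40) or upper-quartile (−0.33) scaling. In the joining of Okazaki fragments, the ligase gene Lig1 had 88.5, 65.2 and 65.9 FPKM in Rbbp4KO cells, against 118, 114 and 119 FPKM in Rbbp4F/F cells (log2 fold change −0.68 with SE 0.12, adjusted p = 0.00321 by limma). The flap nuclease gene Fen1 had 69.2, 59.0 and 53.6 FPKM in Rbbp4KO cells, against 55.1, 57.5 and 53.7 FPKM in Rbbp4F/F cells (log2 fold change 0.12 with SE 0.10, adjusted p = 0.354 by limma), and passed as higher with equal sums (0.28). Exons of Tmem258 and Gm10143 on the other strand cover 84.2% of Fen1, so its value is uncertain. Rnaseh2a, the catalytic subunit of the RNase H2 that cuts RNA in DNA hybrids, was lower (−0.74).

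Nucleotide supply was split between strong falls and no call. Dut (chr2:125247190-125258608, plus strand), whose enzyme removes dUTP, had 83.4, 84.4 and 79.3 FPKM in Rbbp4KO cells, against 175, 168 and 172 FPKM in Rbbp4F/F cells (log2 fold change −1.05 with SE 0.06, adjusted p = 5.46e-05 by limma). Rrm2, the small subunit of ribonucleotide reductase that is made in S phase, had 76.9, 95.4 and 88.1 FPKM in Rbbp4KO cells, against 172, 174 and 163 FPKM in Rbbp4F/F cells (log2 fold change −0.96 with SE 0.09, adjusted p = 0.000236 by limma). Groups were far apart for both genes. The large subunit Rrm1 had 53.3, 54.3 and 58.5 FPKM in Rbbp4KO cells, against 63.2, 61.3 and 57.4 FPKM in Rbbp4F/F cells (log2 fold change −0.13 with SE 0.08, adjusted p = 0.180 by limma), with overlapping groups, and was called lower under median-ratio (−0.36) and upper-quartile (−0.29) scaling. The ratio of Rrm2 to Rrm1 was 1.44, 1.76 and 1.51 in Rbbp4KO libraries, against 2.72, 2.85 and 2.83 in Rbbp4F/F libraries (log2 difference −0.84, exact permutation p = 0.10, adjusted p = 0.133). The thymidylate synthase gene Tyms had 62.1, 55.2 and 52.9 FPKM in Rbbp4KO cells, against 56.2, 52.4 and 56.6 FPKM in Rbbp4F/F cells (log2 fold change 0.04 with SE 0.09, adjusted p = 0.712 by limma). Tk1, the thymidine kinase gene, was not called (−0.17) but was called lower under median-ratio (−0.39) or upper-quartile (−0.33) scaling. Among further nucleotide genes, Dctpp1 (−1.27), Dctd (−1.0) and Dtymk (−0.57) were lower, and Samhd1 (0.28), which degrades dNTPs, was higher. The Samhd1 call was lost with median-ratio (0.06) or upper-quartile (0.12) scaling and when any library other than Rbbp4F/F replicate 2 was left out (0.22 to 0.31). It was also lost with no filter on low values and with the replicate number as a block.

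Genes that protect the fork differed in direction. Timeless had 23.6, 18.3 and 19.7 FPKM in Rbbp4KO cells, against 35.9, 38.8 and 36.8 FPKM in Rbbp4F/F cells (log2 fold change −0.83 with SE 0.11, adjusted p = 0.000792 by limma). Its partner Tipin had 96.1, 111 and 120.4 FPKM in Rbbp4KO cells, against 119.7, 151 and 125 FPKM in Rbbp4F/F cells (log2 fold change −0.27 with SE 0.12, adjusted p = 0.0946 by limma), and passed as lower with median-ratio (−0.50) and upper-quartile (−0.43) scaling. The ratio of Tipin to Timeless was 4.06, 6.08 and 6.11 in Rbbp4KO libraries, against 3.33, 3.90 and 3.39 in Rbbp4F/F libraries (log2 difference 0.59, exact permutation p = 0.10, adjusted p = 0.133). Clspn, the gene of claspin, which carries the checkpoint signal to Chek1, was higher, with 16.7, 19.4 and 21.4 FPKM in Rbbp4KO cells, against 14.7, 15.8 and 14.2 FPKM in Rbbp4F/F cells (log2 fold change 0.34 with SE 0.11, adjusted p = 0.0387 by limma). The Clspn call was lost without any of the Rbbp4F/F libraries, without Rbbp4KO replicate 2 or 3 (0.26 to 0.37 over these), with median-ratio (0.12) or upper-quartile (0.18) scaling and with no filter on low values. Wdhd1, which links the helicase to polymerase alpha, was not called (0.03). Chek1 itself was lower (−0.51). Slbp, which binds the stem-loop of replication-dependent histone mRNA, had 43.9, 66.2 and 66.2 FPKM in Rbbp4KO cells, against 55.3, 59.4 and 53.3 FPKM in Rbbp4F/F cells (log2 fold change 0.04 with SE 0.16, adjusted p = 0.831 by limma). Rbbp4KO replicate 1 was the lowest Slbp value and the other Rbbp4KO libraries the highest, and without that library Slbp was called higher (0.24).

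**Figure D3:**
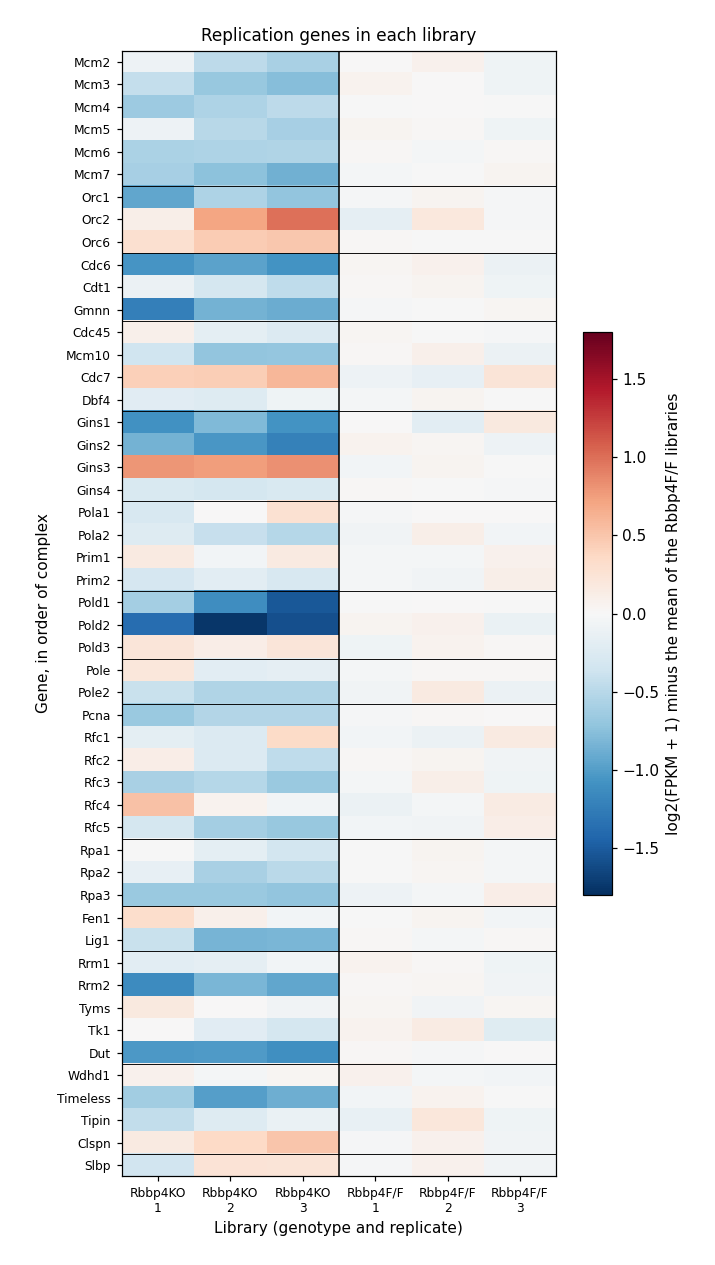
Heat map of log2(FPKM + 1) minus the mean of the 3 Rbbp4F/F libraries, for the 50 genes in order of complex (rows) and the Rbbp4KO and Rbbp4F/F libraries (columns, Rbbp4KO left). Blue is lower and red is higher. The darkest blue cells are those of Pold2 in the Rbbp4KO libraries and of Pold1 in Rbbp4KO replicate 3. Pold1 is paler in replicate 1, and Orc2 is red in Rbbp4KO replicates 2 and 3.

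**Figure D4:**
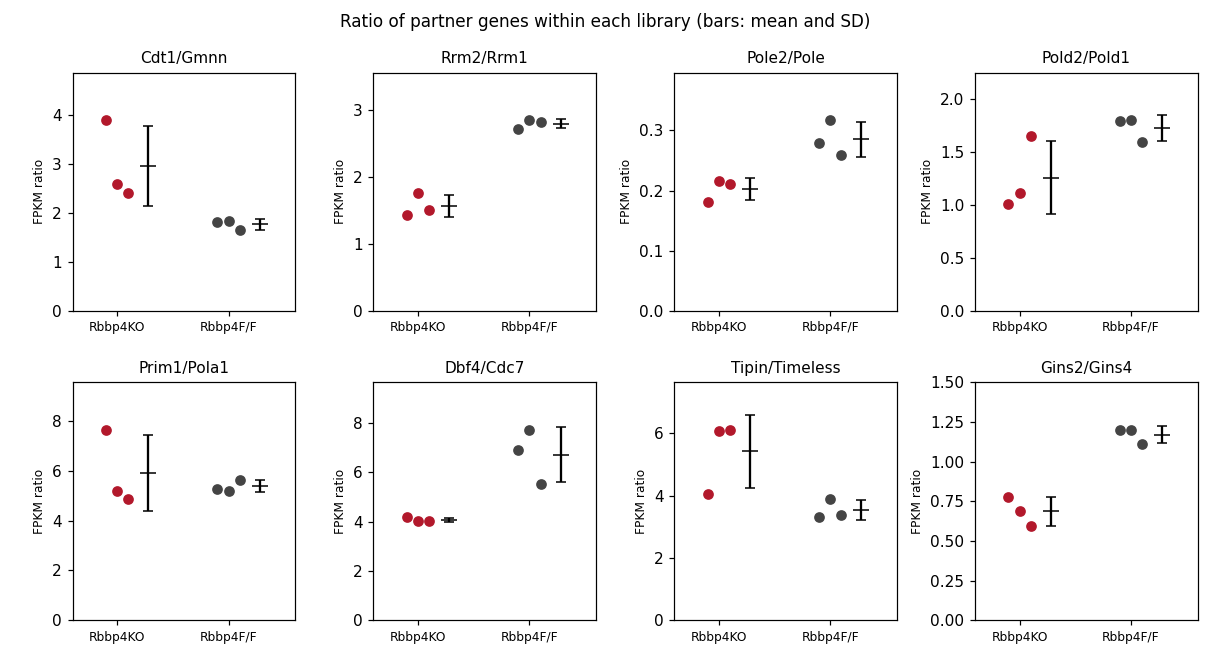
Ratio of FPKM between 8 pairs of partner genes in each library, Rbbp4KO left and Rbbp4F/F right; points are libraries and bars are the mean and SD of 3 libraries. The groups are separate in 6 pairs and overlap for Pold2 to Pold1 and Prim1 to Pola1. The pairs were chosen with earlier results known, and no share was computed for ratios of other genes. For single genes, every Rbbp4KO library lay below every Rbbp4F/F library for 25.5% of all tested genes and above for 41.3%. No adjusted p of the exact permutation test was under 0.133.

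Across 58 further replication genes listed in the same way, 22 were lower and 11 higher, which is 37.9% and 19.0%, against 22.5% and 36.7% of all tested genes. Scaling by median ratios gave 28 and 7, by upper quartiles 27 and 7, and equal sums gave 14 and 16. Their median log2 fold change was −0.16. The lower genes with the smallest p were Uhrf1, a cofactor of maintenance DNA methylation (log2 fold change −1.12 with SE 0.09, adjusted p = 0.000140 by limma), Chaf1b, a subunit of CAF-1 beside Rbbp4 (log2 fold change −0.97 with SE 0.12, adjusted p = 0.000632 by limma), and the maintenance methyltransferase gene Dnmt1 (log2 fold change −0.51 with SE 0.06, adjusted p = 0.000671 by limma). Chaf1b had 70.4, 54.5 and 54.0 FPKM in Rbbp4KO cells, against 118, 108 and 126 FPKM in Rbbp4F/F cells. The large CAF-1 subunit gene Chaf1a had 59.8, 58.4 and 52.5 FPKM in Rbbp4KO cells, against 50.5, 50.8 and 46.2 FPKM in Rbbp4F/F cells, and was not called (log2 fold change 0.21 with SE 0.08, adjusted p = 0.0694 by limma). It passed as higher without Rbbp4KO replicate 3 (0.26) and with equal sums (0.36), and antisense exons of Ubxn6 cover 52.5% of it. The higher genes with the smallest p were Donson, needed to assemble the helicase (log2 fold change 1.07 with SE 0.11, adjusted p = 0.000322 by limma), Pole3 and Cul4b (log2 fold change 1.40 with SE 0.16, adjusted p = 0.000472 by limma). Donson had 18.3, 20.3 and 19.9 FPKM in Rbbp4KO cells, against 8.57, 7.88 and 9.87 FPKM in Rbbp4F/F cells, with exons of Atp5o on the same strand over 9.2% of it. These 6 were themselves picked from these data, by the smallest p among the called genes. Further genes named here and above were also chosen after their values were seen.

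Rbbp4KO replicate 1 differed from the other Rbbp4KO libraries in many of the 50 genes, in both directions. It was the highest Rbbp4KO library for 26 genes and the lowest for 16. On the log2(FPKM + 1) scale it exceeded the mean of replicates 2 and 3 by 0.71 for Pold1, 0.53 for Rfc4 and 0.47 for Rfc2, and lay below it by a difference of −0.74 for Orc2 and −0.58 for Slbp. This difference ran with the GC content of the longest transcript (Spearman's rho 0.63 over 50 genes, which share the same libraries). The log2 fold change between genotypes ran weakly the other way (rho −0.39), and the median GC content was 50% for genes called lower, 46.6% for those called higher and 46.2% for those not called. Genes called lower were also the more abundant, with a median of 91.2 FPKM in Rbbp4F/F cells, against 12.5 FPKM for genes called higher and 55.7 FPKM for those not called. The part of GC content in the calls was not tested. Rbbp4KO replicate 1 also held the most Rbbp4 transcript (21.3 FPKM, against 12.7 and 11.1 FPKM in replicates 2 and 3). Of the Rbbp4KO libraries it had the highest summed level of embryonic stem cell markers (2098 FPKM). Its summed level of trophoblast markers was the lowest (2184 FPKM). The part of these differences, or of GC content, in the pattern of replicate 1 was not tested.

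**Figure D5:**
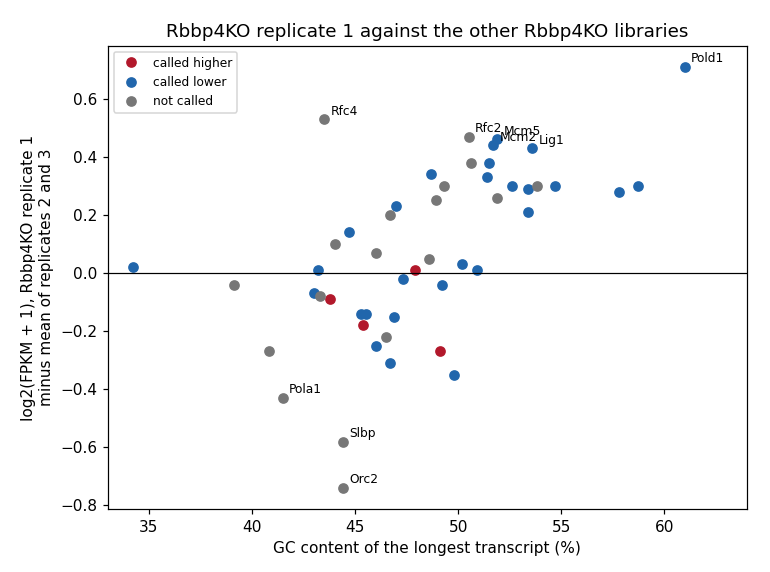
Difference in log2(FPKM + 1) between Rbbp4KO replicate 1 and the mean of Rbbp4KO replicates 2 and 3, against the GC content of the longest transcript in percent; each point is 1 of the 50 genes, coloured by its call. Points rise with GC content, from −0.74 (Orc2) to 0.71 (Pold1).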

How the data were processed

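RNA was extracted with Trizol and libraries were made with the Illumina TruSeq RNA kit, per the labels' protocols. Tools listed in the submitters' processing notes, without roles, are HISAT2 2.1.0, DESeq 1.26.0, RSEM and FastQC, and the genome build is GRCm38.p6. The sources used here give neither annotation release nor strand setting. The authors deposited 1 FPKM value per gene and library; the unit was read from the values. Of 52872 rows per file, 2 held text and were left out. Depth was estimated from the steps of low FPKM values (single transcripts, an effective length 250 or 275 bases under the full length), and 89.1% to 93.8% of these values lay within 0.15 of a whole step; no count model was used.

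The test covered 13579 genes that reached 1 FPKM in 3 or more libraries (2 or more where a library was left out). It used limma 3.58.1 (R 4.3.3) on log2(FPKM + 1), with trended empirical Bayes, genotype as the only term, 2-sided p-values and Benjamini-Hochberg adjustment over all tested genes. Fold changes on this scale understate those of low genes. Ratios within a library were compared by exact permutation (scipy 1.17.1). Members, lists, pairs and alternatives were chosen with earlier results of these data known. Values are given library by library for the lowest and highest log2 fold change of each complex, genes called higher, genes of a ratio and some further genes. Alternatives were other scalings, a pseudocount of 0.1, no filter or 5 FPKM, protein-coding genes alone, the replicate number as a block and each library left out.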

Additional observations from a re-analysis of the deposited data

How the results depend on the processing

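The median log2 fold change of the 50 replication genes was −0.34, and −0.56 with median-ratio scaling, −0.50 with upper-quartile scaling, −0.18 with equal sums and −0.42 to −0.29 with 1 library left out. The count of lower genes, 28, stayed within 1.5 times under all 14 alternatives (21 to 35). The count of higher genes, 4, was 1 with median-ratio scaling, 2 with upper-quartile scaling, 8 with equal sums and 2 to 6 with 1 library left out (2 without Rbbp4F/F replicate 1 or 2 or Rbbp4KO replicate 3). With the replicate number as a block, 27 were lower and 4 higher (Prim2 and Clspn were no longer called, and Orc2 was), and 22 lower and 9 higher among the 58 further genes. Whether same-numbered libraries were paired is not given. Their deviations from the group means had correlations of −0.001, −0.009 and 0.049, against −0.072 to 0.072 for libraries with different numbers. With so few libraries these values cannot settle it. Of the 58 further genes, 14 were lower with equal sums against 22, and 7 were higher with median-ratio and with upper-quartile scaling against 11, or 8 to 14 with 1 library left out. The difference in the ratio of Prim1 to Pola1 reversed to −0.09 without Rbbp4KO replicate 1 (range −0.09 to 0.23), while the other 7 ratios kept their direction. Among genes not called, 12 changed sign under some alternative without passing. The cause of these shifts was not tested. Depth did not limit detection of any of the 50 genes, whereas 3 libraries per group limit the precision.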
